A study of Mus musculus with 18 samples.

Results

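The genes described here run 2 linked stages of the cell cycle in mouse mammary tumours: 26 genes of mitosis and 18 genes of DNA replication, 44 in all. They were chosen as a list of gene symbols, and each array feature whose annotated symbol was on the list was taken, with features of 1 symbol averaged. Of the 44 genes, 42 were measured, 25 mitotic and 17 replication genes, among 16887 genes tested. The mitotic cyclin gene Ccnb1 and the flap endonuclease gene Fen1 matched no feature and have no value. The choice of these genes used no measured value of theirs, although earlier results of the same arrays were known when the list was written.

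Each of 18 arrays compared RNA of a primary mammary tumour, labelled with Cy5, against 1 common RNA from whole mouse, labelled with Cy3. All tumours carried the label Wnt1, and the groups were Wnt1 alone (n = 6), Wnt1_iFGFR1 (n = 4), Wnt1_iFGFR2 (n = 4) and Wnt1_iR2 (n = 4), written below as Wnt1, iFGFR1, iFGFR2 and iR2. Titles also carry FVB, a laboratory mouse strain, and MMTV, the mammary tumour virus whose promoter drives transgenes in mammary epithelium. The labels expand neither the prefix i nor iR2, and they give no age, treatment, time or batch. The series title asks how FGF receptor and Wnt-1 signalling act together in mammary tumour formation. Whether each array holds a tumour of its own animal is not given, so the p-values below measure spread among samples that may be technical only.

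Cells that divide copy their DNA in S phase and separate the copies in mitosis. Cyclin E with its kinase opens S phase at origins that were licensed with the MCM helicase, and ribonucleotide reductase and thymidylate synthase supply the nucleotides. Cyclins A and B with Cdk1 then drive entry into mitosis, where motor proteins build the spindle, the checkpoint holds chromosomes until they are attached, and the anaphase-promoting complex ends the division. Many of these genes are transcribed only in part of the cycle, so their RNA in a bulk tumour is commonly read as a measure of dividing cells. In a bulk sample, fewer dividing cells and less RNA per dividing cell cannot be told apart.

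The promoters of the members are known for short control elements: the CCAAT box bound by NF-Y, the cell cycle homology region (searched as TTTGAA), and the E2F site (searched by its core TTNNCGC). All 3 were searched on both strands in windows of 300 bases, from 250 before to 50 after the annotated start, taken from RefSeq for build GRCm38.p6. A window was found for 37 of the 44 members, 22 mitotic and 15 replication genes. CCAAT was found in 20 of 22 mitotic windows (90.9%) and 9 of 15 replication windows (60%), against 37.9% of the windows of 27025 symbols. TTTGAA was found in 17 of 22 mitotic windows (77.3%) and 2 of 15 replication windows (13.3%), against 18.1% of all. TTNNCGC was found in 6 of 22 mitotic windows (27.3%) and 12 of 15 replication windows (80%), against 20.5% of all. A match is a run of letters and not a shown binding site, and the arrays measured no binding. The windows below belong to 6 of the 8 members that differed among the 4 tumour groups, and their layouts differ. They read 5′ to 3′ on the strand of the gene, with the motif letters in capitals. Kif11 lies at chr19:37376132-37376431 on the plus strand, Cdk1 at chr10:69352863-69353162 on the minus strand, and Ube2c at chr2:164769679-164769978 on the plus strand. Bub1b lies at chr2:118597961-118598260 and Rrm1 at chr7:102441445-102441744, both on the plus strand, and Ccne1 at chr7:38107441-38107740 on the minus strand.
Kif11: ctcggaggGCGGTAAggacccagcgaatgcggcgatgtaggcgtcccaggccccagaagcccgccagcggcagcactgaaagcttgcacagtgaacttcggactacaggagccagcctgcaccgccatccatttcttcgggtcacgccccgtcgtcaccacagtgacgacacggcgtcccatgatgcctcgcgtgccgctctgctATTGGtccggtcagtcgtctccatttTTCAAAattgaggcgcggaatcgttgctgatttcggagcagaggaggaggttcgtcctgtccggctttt
Cdk1: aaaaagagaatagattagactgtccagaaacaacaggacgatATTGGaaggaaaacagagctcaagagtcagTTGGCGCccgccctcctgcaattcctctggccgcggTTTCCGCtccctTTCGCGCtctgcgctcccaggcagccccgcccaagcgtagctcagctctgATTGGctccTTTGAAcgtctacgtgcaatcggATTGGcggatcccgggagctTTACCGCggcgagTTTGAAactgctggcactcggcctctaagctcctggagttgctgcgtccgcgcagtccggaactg
Ube2c: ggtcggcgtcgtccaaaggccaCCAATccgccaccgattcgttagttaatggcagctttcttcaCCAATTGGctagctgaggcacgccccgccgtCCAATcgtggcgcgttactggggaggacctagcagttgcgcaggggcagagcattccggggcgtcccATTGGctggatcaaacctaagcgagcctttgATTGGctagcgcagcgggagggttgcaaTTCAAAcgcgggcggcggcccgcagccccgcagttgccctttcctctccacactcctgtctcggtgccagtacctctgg
Bub1b: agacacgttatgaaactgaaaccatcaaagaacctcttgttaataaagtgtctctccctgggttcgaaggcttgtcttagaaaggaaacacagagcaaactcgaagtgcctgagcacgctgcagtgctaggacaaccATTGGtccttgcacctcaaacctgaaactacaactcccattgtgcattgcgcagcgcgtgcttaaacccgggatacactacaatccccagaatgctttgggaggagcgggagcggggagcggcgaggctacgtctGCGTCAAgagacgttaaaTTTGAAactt
Rrm1: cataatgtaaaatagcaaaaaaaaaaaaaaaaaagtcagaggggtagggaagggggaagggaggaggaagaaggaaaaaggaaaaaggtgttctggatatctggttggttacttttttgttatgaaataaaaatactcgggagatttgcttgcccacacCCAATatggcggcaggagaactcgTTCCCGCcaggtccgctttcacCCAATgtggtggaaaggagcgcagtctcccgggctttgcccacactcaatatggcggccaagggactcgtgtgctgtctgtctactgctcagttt
Ccne1: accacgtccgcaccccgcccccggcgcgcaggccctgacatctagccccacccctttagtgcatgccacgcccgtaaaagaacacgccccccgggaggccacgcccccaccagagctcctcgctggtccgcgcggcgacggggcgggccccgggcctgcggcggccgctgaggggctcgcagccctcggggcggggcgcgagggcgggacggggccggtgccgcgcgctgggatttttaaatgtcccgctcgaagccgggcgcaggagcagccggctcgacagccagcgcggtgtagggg
Positions are counted from the annotated start. In Kif11 a reversed TTNNCGC lies at -242 to -236. Nearer the start, a reversed CCAAT at -45 to -41 stands ahead of a reversed TTTGAA at -19 to -14. Cdk1 holds a similar pair nearest its start, with a reversed CCAAT at -48 to -44 and TTTGAA at -15 to -10, and 4 matches of TTNNCGC. Ube2c has 6 CCAAT matches, of which the one at -186 to -182 overlaps one on the other strand at -183 to -179, and a reversed TTTGAA at -29 to -24. Bub1b has a reversed CCAAT at -113 to -109. Its reversed TTNNCGC at 23 to 29 and its TTTGAA at 41 to 46 lie after the start. Rrm1, of the replication genes, has CCAAT at -91 to -87 and -45 to -41 around a TTNNCGC at -67 to -61 and no TTTGAA. Ccne1 holds none of the 3 letter runs in this window. The window of Cenpe holds 1 CCAAT match only.

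Values are log ratios of tumour to reference, read as log2, so 0 means a level equal to whole mouse and not absence of RNA. The mean over the 25 mitotic genes was 0.122 ± 0.144 in Wnt1 (SD, n = 6) and 0.628 ± 0.180 in iFGFR1 (n = 4). It was 0.328 ± 0.098 on iFGFR2 arrays and 0.340 ± 0.039 on iR2 arrays (n = 4 each). The mean of the 17 replication genes was 0.239 ± 0.160, 0.556 ± 0.314, 0.216 ± 0.153 and 0.112 ± 0.023 in the same order of groups. The mitotic mean was thus higher in iFGFR1 than on any other array: its 4 arrays stood at 0.538, 0.554, 0.898 and 0.523, and the highest of the other 14 arrays at 0.391. The 0.538 of replicate 1 includes Kif23 at -2.35, an average of features that read -5.5 and 0.797. The order of the iFGFR1 arrays was not tested without that gene. The replication mean split the iFGFR1 arrays. Replicates 1 and 3 stood at 0.863 and 0.791, above all others, while replicates 2 and 4 stood at 0.273 and 0.299, inside the range of Wnt1 (0.055 to 0.509). iFGFR1 had the highest group mean for 19 of 25 mitotic and 14 of 17 replication genes. The lowest group mean was that of Wnt1 for 15 of 25 mitotic genes, but that of iR2 for 11 of 17 replication genes.

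**Figure D1:**
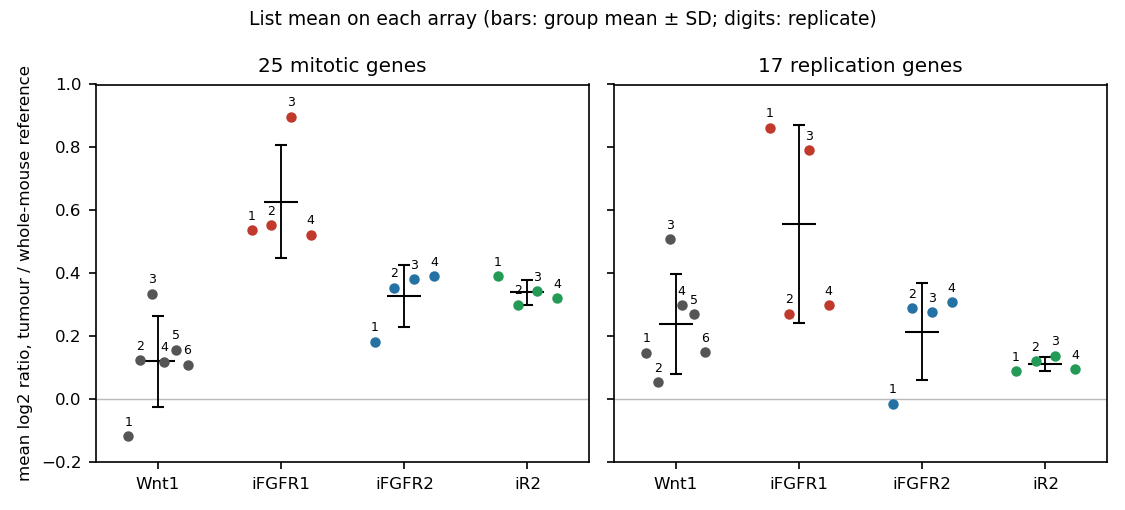
Mean log2 ratio of tumour to whole-mouse reference over the 25 mitotic genes (left) and the 17 replication genes (right) on each of the 18 arrays, by group. Points are arrays with their replicate number, and bars are the group mean ± SD. The 4 iFGFR1 arrays have the 4 highest mitotic means, from 0.523 to 0.898, whereas only replicates 1 and 3 of iFGFR1 lie above every other array in the replication mean.

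Array facts bear on all of these values. Wnt1 replicate 3 stood apart from its group: over all genes it correlated with the other Wnt1 arrays at 0.733 to 0.762 and with the iR2 arrays at 0.805 to 0.831. It also had the highest mitotic mean of the Wnt1 arrays, 0.336, and the highest replication mean, 0.509. The iR2 arrays were more alike than any other group, with correlations of 0.907 to 0.932, and the median SD of a member within the group was 0.131 for mitotic and 0.145 for replication genes (0.174 over all genes). No array pair held identical values. The array medians lay between -0.023 and 0.009.

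Among the 4 groups, 8 of the 42 members differed by limma's F test at a Benjamini-Hochberg adjusted p under 0.05, where 19.6% of all genes did, and 19 had an unadjusted p under 0.05. The share of members called was thus near that of all genes. The 5 mitotic genes were Kif11 (adjusted p = 0.00194), Cdk1 (0.00496), Ube2c (0.00807), Bub1b (0.0103) and Cenpe (0.0251). The 3 replication genes were Ccne2 (0.00861), Ccne1 (0.0181) and Rrm1 (0.0429). Without Wnt1 replicate 3 the F test called 10 mitotic and 3 replication genes, and 24.6% of all genes. Without iFGFR2 replicate 2 it also called 10 mitotic genes. That fit called 8.7% of all genes in iFGFR2 against Wnt1, where 3.43% were called with every array. The replication count was 1 without iFGFR1 replicate 1 or 3, and 5 without iFGFR1 replicate 2. In iFGFR1 against Wnt1 those fits called 10.4%, 10.4% and 17.8% of all genes, against 15.4% with every array. The shares for iFGFR2 and iFGFR1 against Wnt1 come from comparisons of 2 groups and not from the F test. The F test share in those fits is not given, so these shares are no background for its counts.

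**Figure D2:**
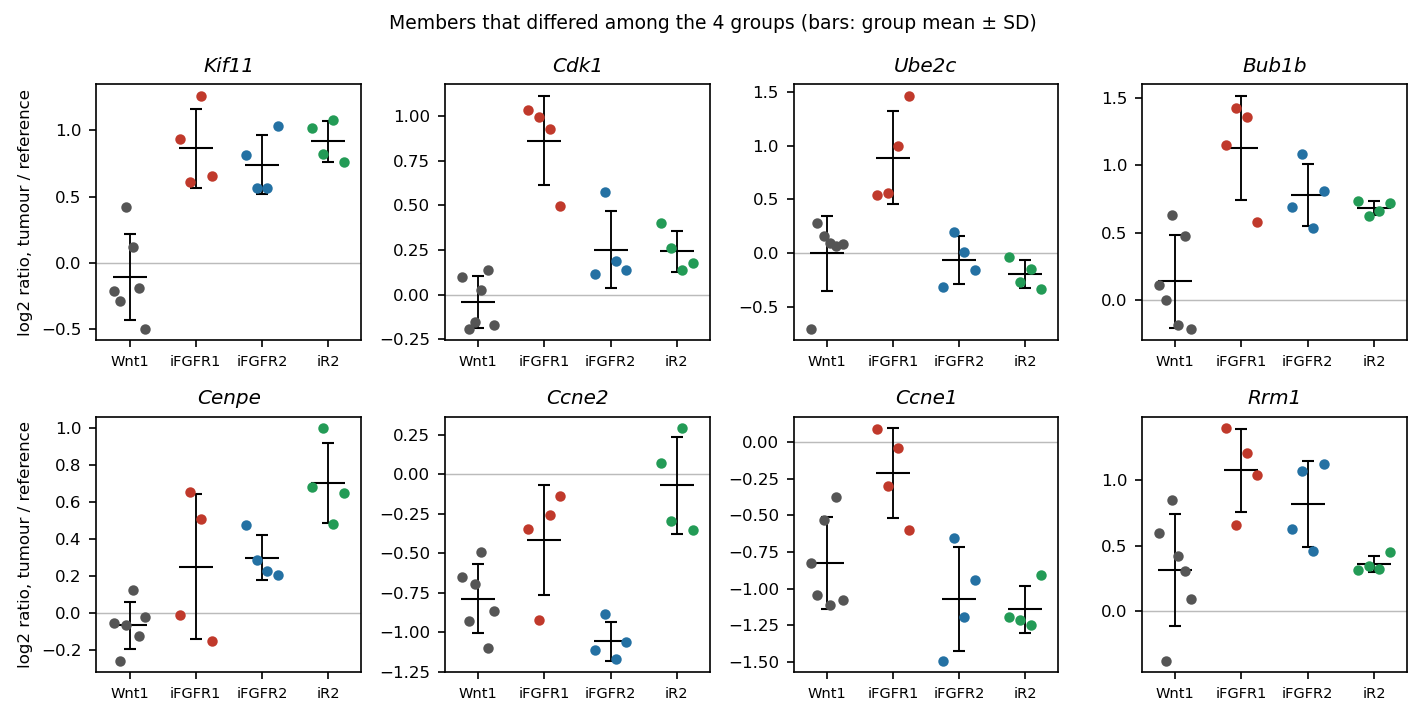
Log2 ratio of tumour to reference on each array for the 8 members that differed among the 4 groups by limma's F test; each panel has its own vertical scale. Points are arrays and bars are the group mean ± SD. Kif11 is high in all 3 receptor-labelled groups, Cdk1, Ube2c and Ccne1 are high in iFGFR1, and Ccne2 and Cenpe have their highest mean in iR2.

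The first comparison set iFGFR1 against Wnt1. Mitotic genes were higher in iFGFR1: 7 of 25 rose and 0 fell, where 8.38% of all genes rose and 7.06% fell. The 7 were Cdk1, Ccna2, Kif11, Bub1b, Ube2c, Cdc20 and Top2a, with differences of 0.77 to 0.99, or 1.71-fold to 1.99-fold. Of the 25, 23 had a difference above 0 and 16 an unadjusted p under 0.05, and their median was 0.474 against 0.0192 over all genes. Of the replication genes, 2 of 17 rose (Ccne1 and Rrm1) and 0 fell, 15 had a difference above 0, 7 an unadjusted p under 0.05, and the median was 0.289. Every iFGFR1 array lay above every Wnt1 array for 5 mitotic genes (Cdk1, Ccnb2, Kif11, Ube2c and Cdc20) and 0 replication genes, where 4.88% of all genes did so, and below every Wnt1 array for 0 members, where 4.61% did so. All adjusted p-values of single genes are from limma with Benjamini-Hochberg adjustment over all genes.

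Those counts moved with single arrays. The mitotic count ranged from 4 to 9 as each array was left out. It was 9 without Wnt1 replicate 3, where 18.3% of all genes were called in either direction (15.4% with it). It was 4 without iFGFR1 replicate 3 or 4, where 10.4% and 12.4% of all genes were called. No replication gene was called without Wnt1 replicate 6, iFGFR1 replicate 1 or iFGFR1 replicate 3, where 11.4%, 10.4% and 10.4% of all genes were. The count was 1 without Wnt1 replicates 1, 2 or 4, iFGFR2 replicates 3 or 4, or any 1 of the iR2 arrays. Those fits called 12.2% to 15% of all genes. The count was 4 without Wnt1 replicate 3 or iFGFR1 replicate 2, where 18.3% and 17.8% of all genes were called. The calls of Cdk1, Kif11, Bub1b and Ube2c held with any 1 array left out, with highest adjusted p of 0.00505, 0.0139, 0.0146 and 0.0342. When the number that each title carries was fitted as a covariate, Ube2c, Ccna2, Cdc20 and Ccne1 lost their calls (adjusted p = 0.0653, 0.171, 0.19 and 0.0601). Ccna2 and Top2a also lost theirs under quantile normalization (0.0595 and 0.0554), and Ccna2, Cdc20, Top2a and Rrm1 when each array was scaled to 1 median absolute deviation (0.0671, 0.0928, 0.0726 and 0.0764). With only the arrays compared, Top2a, Ccne1 and Rrm1 lost theirs (0.0864, 0.0855 and 0.0631), and with a variance filter Ccne1 (0.0718).

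Markers of other cells were read from 9 lists, and some moved with iFGFR1. All 9 fibroblast markers were below Wnt1 and 7 fell, and their mean level was -3.34 ± 0.34 in iFGFR1 against -1.90 ± 0.45 in Wnt1, with array ranges of -3.65 to -2.86 and -2.24 to -1.04. All 7 neutrophil markers were above Wnt1 and 3 rose, at -2.45 ± 0.15 (-2.64 to -2.29) against -3.39 ± 0.18 (-3.62 to -3.07). Luminal epithelial markers had 3 of 8 risen, at 2.75 ± 0.38 (2.27 to 3.15) against 2.07 ± 0.62 (1.41 to 3.13). Of 8 basal markers 3 fell and 1 rose, at -1.08 ± 0.23 (-1.41 to -0.92) against -0.59 ± 0.36 (-0.86 to 0.10). Of the remaining lists in iFGFR1, endothelium had 0 of 7 called, macrophages 1 of 7 risen and 1 fallen, T cells 1 of 6 risen, B cells 1 of 4 risen, and erythroid cells 1 of 4 risen and 1 fallen. The part of these markers in the values of the mitotic and replication genes was not tested. In iFGFR2 and iR2 the fibroblast level was -2.70 ± 0.21 (-2.83 to -2.39) and -2.37 ± 0.07 (-2.47 to -2.29), with 1 of 9 fallen in each. The neutrophil level there was -3.34 ± 0.09 (-3.42 to -3.23) and -3.98 ± 0.19 (-4.20 to -3.76), with 0 and 1 of 7 fallen. The luminal level was 2.63 ± 0.25 (2.28 to 2.85) and 2.74 ± 0.05 (2.68 to 2.80), so these groups also exceeded the Wnt1 mean in luminal RNA, with 1 and 2 of 8 markers risen. In iR2, 2 of 6 T cell markers fell, at -0.84 ± 0.15 (-1.03 to -0.66) against -0.49 ± 0.14 (-0.70 to -0.30) in Wnt1, and 1 of 8 basal markers rose. Endothelial, macrophage, B cell and erythroid markers had no call in iR2, and these lists, T cells and basal cells had none in iFGFR2. A ratio to a whole-mouse pool cannot show that a marker is absent.

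Entry into mitosis is the work of Cdk1, the main mitotic kinase, and of its cyclins. Cdk1 stood at -0.19, -0.063 and 0.14 in Wnt1 (lowest, median and highest of 6) and at 1.03, 0.996, 0.93 and 0.49 in iFGFR1. The iFGFR2 arrays stood at 0.11, 0.57, 0.19 and 0.14, and the iR2 arrays at 0.40, 0.26, 0.14 and 0.18. The iFGFR1 arrays lay above every Wnt1 array with a wide gap, and the lowest of them overlapped iFGFR2 through iFGFR2 replicate 2 alone. The rise over Wnt1 was 0.90 (SE 0.16, 1.87-fold, adjusted p = 0.000957), whereas iFGFR2 and iR2 differed from Wnt1 by 0.29 each (SE 0.16, adjusted p = 0.308 and 0.298). Ccna2, the cyclin of S phase and early mitosis, stood at 1.07, 0.16, 1.18 and 0.85 in iFGFR1 and ranged from -1.03 to 0.48 around a median of -0.036 in Wnt1. It rose by 0.95 (SE 0.29, adjusted p = 0.0347), with 3 of 4 arrays above every Wnt1 array. The call of Ccna2 was lost without Wnt1 replicate 1, 2 or 5 or iFGFR1 replicate 1, 3 or 4 (highest adjusted p = 0.107). Its iFGFR2 arrays, at 0.61, -0.27, 1.19 and 1.11, were as far apart, and the difference of 0.79 there did not pass (adjusted p = 0.127). Its iR2 arrays stood at 0.36, 0.21, 0.61 and 0.18. Ccnb2, a B-type cyclin, differed by 0.56 in iFGFR1 (adjusted p = 0.0593), with all 4 arrays above every Wnt1 array. The gap was small, from 0.248 in Wnt1 replicate 3 to 0.25 in iFGFR1 replicate 1.

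Kif11 is the plus-end-directed kinesin that pushes the spindle poles apart. It was the only member that rose over Wnt1 in all 3 receptor-labelled groups. Its Wnt1 arrays stood at -0.49, -0.20 and 0.42 (lowest, median and highest of 6), the highest being replicate 3. The iFGFR1 arrays stood at 0.94, 0.61, 1.26 and 0.66, the iFGFR2 arrays at 0.81, 0.57, 0.56 and 1.03, and the iR2 arrays at 1.02, 0.82, 1.08 and 0.76. All 12 receptor-labelled arrays therefore exceeded every Wnt1 array. The rises were 0.97 in iFGFR1 (1.96-fold, adjusted p = 0.00227), 0.85 in iFGFR2 (1.80-fold, adjusted p = 0.0229) and 1.02 in iR2 (2.03-fold, adjusted p = 0.00482), each with SE 0.19. These 3 comparisons share the Wnt1 arrays and are not independent of each other. Between receptor groups Kif11 differed by at most 0.18 (SE 0.21, iR2 minus iFGFR2). The iFGFR2 call was lost without Wnt1 replicate 2 or 6 or iFGFR2 replicate 1 or 4 (highest adjusted p = 0.0764) and with only the arrays compared (0.0721). The iR2 call held with any 1 array left out (highest adjusted p = 0.0289) but was lost in 2 other fits. With the title number as a covariate the difference was 1.34 (adjusted p = 0.146), and with a term that joins Wnt1 replicate 3 to the iR2 arrays, chosen after seeing the data, it was 0.50 (0.697). Kif2c, a depolymerising kinesin at centromeres, differed from Wnt1 by 0.44 in iFGFR1, 0.54 in iFGFR2 and 0.53 in iR2 (SE 0.20, adjusted p = 0.152, 0.132 and 0.119). Kif4, a chromosome-arm kinesin, differed by 0.40, 0.36 and 0.28, and Kif20a, a kinesin of cytokinesis, by 0.27, -0.07 and -0.02, and neither passed. Kif23, a kinesin of the central spindle, has 2 features that disagree: one read -5.5 on iFGFR1 replicate 1 where the other read 0.797. Their differences between iFGFR1 and Wnt1 were -1.18 and 0.87, so the averaged value of -0.15 (SE 0.38) has no settled direction.

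Of the checkpoint and exit genes, 3 rose in iFGFR1, among them the member with the largest difference, Bub1b. It encodes BubR1, which holds the anaphase-promoting complex inactive until chromosomes are attached. It stood at 1.15, 1.43, 1.36 and 0.58 in iFGFR1, against -0.21, 0.059 and 0.63 in Wnt1 (lowest, median and highest), so that replicate 4 alone fell inside the Wnt1 range. The rise was 0.99 (SE 0.20, 1.99-fold, adjusted p = 0.00291). In iFGFR2 it stood at 0.69, 1.09, 0.54 and 0.81 and in iR2 at 0.74, 0.62, 0.67 and 0.72, where the differences from Wnt1, 0.64 and 0.55, missed the threshold (adjusted p = 0.0756 and 0.105). Ube2c, the ubiquitin-conjugating enzyme of the anaphase-promoting complex, showed a different pattern. Its iFGFR1 arrays stood at 0.55, 0.56, 0.99 and 1.46, above every array of the other 3 groups. The Wnt1 arrays had a lowest value of -0.70, a median of 0.094 and a highest of 0.28. The iFGFR2 arrays stood at -0.32, 0.20, 0.010 and -0.15, and the iR2 arrays at -0.034, -0.26, -0.14 and -0.33. Ube2c rose by 0.89 over Wnt1 in iFGFR1 (SE 0.21, 1.86-fold, adjusted p = 0.00771). It differed from Wnt1 by -0.06 in iFGFR2 (adjusted p = 0.903) and -0.19 in iR2 (adjusted p = 0.648). Cdc20, the activator of the same complex, stood at 1.01, 1.13, 1.85 and 1.49 in iFGFR1 against 0.20 to 1.005 (median 0.59) in Wnt1. The gap between the groups was small, from 1.005 in Wnt1 replicate 3 to 1.006 in iFGFR1 replicate 1. Cdc20 rose by 0.77 (SE 0.24, adjusted p = 0.0314), a call lost without Wnt1 replicate 4, 5 or 6 or iFGFR1 replicate 3 or 4 (highest adjusted p = 0.119). Its iFGFR2 arrays spread from -0.22 to 1.09 and its iR2 arrays from 0.71 to 0.996, with differences of 0.07 and 0.27 that did not pass. Ttk, the checkpoint kinase Mps1, stood at 0.98, 0.70, 1.28 and 0.64 in iFGFR1, 0.030 to 0.85 in iFGFR2, -0.14 to 0.32 in iR2 and -0.44 to 0.89 in Wnt1, and its difference of 0.67 in iFGFR1 just missed the threshold (adjusted p = 0.053). Bub1, the partner kinase at kinetochores, differed by 0.40 in iFGFR1 (adjusted p = 0.24).

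Of the members, the mitotic kinases Aurka, Plk1, Aurkb and Nek2 did not pass in iFGFR1 by limma. Neither did Tpx2 or, of the chromosomal passenger complex, Cdca8 and Birc5. The differences were 0.63 for Aurka, the spindle-pole kinase (adjusted p = 0.067), 0.52 for its activator Tpx2 (0.138), 0.40 for Plk1, a kinase of mitotic entry and exit (0.132), and 0.60 for Aurkb, the kinase of the passenger complex (0.0893). Its partners Cdca8 and Birc5 (survivin) differed by 0.46 and 0.47 (adjusted p = 0.0819 and 0.161). Nek2, a kinase of centrosome separation, differed by 0.00 in iFGFR1 and by -0.60 and -0.41 in iFGFR2 and iR2 (adjusted p = 0.11 and 0.249). Birc5 had its lowest values in iR2, at -0.096, 0, -0.46 and 0.29, against 0.96, 0.77, 1.34 and 0.42 in iFGFR1, 0.42, 0.91, 0.043 and 0.14 in iFGFR2, and -0.082, 0.55 and 0.64 (lowest, median and highest) in Wnt1. The iR2 and iFGFR1 arrays of Birc5 did not overlap.

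Kinetochore and chromatin genes gave a mixed picture. Cenpe, the kinesin that carries chromosomes to the spindle equator, was highest in iR2, at 0.68, 1, 0.48 and 0.65. In Wnt1 it ranged from -0.26 through a median of -0.058 to 0.13, in iFGFR2 it stood at 0.48, 0.29, 0.23 and 0.21, and in iFGFR1 at -0.008, 0.66, 0.51 and -0.15. In this average of 2 features, all iR2 and iFGFR2 arrays lay above every Wnt1 array, while iFGFR1 straddled them. On one of the features the groups overlap, with Wnt1 reaching 0.537 where iR2 replicate 3 read 0.403 and iFGFR2 replicate 4 read 0.241. Cenpe rose by 0.77 over Wnt1 in iR2 (SE 0.18, 1.70-fold, adjusted p = 0.0143), and the call was lost without iR2 replicate 1 or 2 (highest adjusted p = 0.0695) and with the title number as a covariate (0.465). Its 2 features gave 0.42 and 1.12 for this difference, both above 0. The term that joins Wnt1 replicate 3 to the iR2 arrays also ended the call of Cenpe, at a difference of 0.77. Cenpa, the histone of centromeres, differed by 0.29 (iFGFR1), -0.46 (iFGFR2) and -0.11 (iR2), and Cenpf, a kinetochore protein, by -0.03, 0.05 and -0.22, with no call. Top2a, the topoisomerase that untangles sister chromatids, stood at 0.95, 0.34, 1.49 and 0.83 in iFGFR1 and at -0.67, 0.14 and 0.68 in Wnt1 (lowest, median and highest). It rose by 0.79 (SE 0.24, adjusted p = 0.0308), a call lost without Wnt1 replicate 1, 4 or 6 or iFGFR1 replicate 1, 3 or 4 (highest adjusted p = 0.125). Top2a in iFGFR2, at 0.92, 0.55, 0.83 and 0.96, and in iR2, at 0.59, 0.84, 0.45 and 0.70, differed from Wnt1 by 0.70 and 0.53 (adjusted p = 0.0982 and 0.186). Mki67, the gene of the Ki-67 antigen used to stain dividing cells, differed little: its mean was -0.81 ± 0.36 in Wnt1 and -0.67 ± 0.44 in iFGFR1, and that of iFGFR2 and iR2 was -0.57 ± 0.30 and -0.51 ± 0.09, with differences of 0.14, 0.24 and 0.31 (SE 0.22, adjusted p = 0.712, 0.563 and 0.431).

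**Figure D3:**
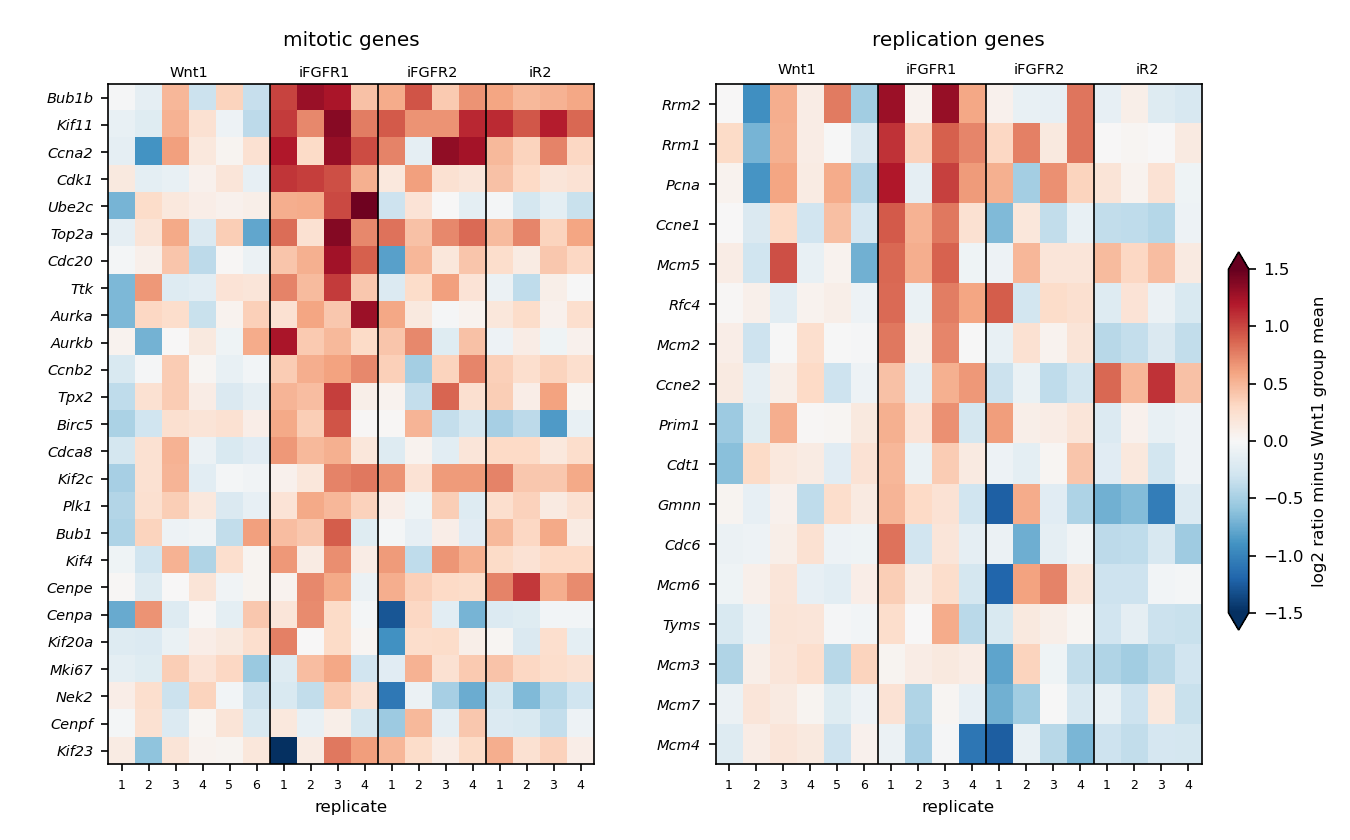
Log2 ratio of each measured member on each array minus the mean of the 6 Wnt1 arrays for that gene, with mitotic genes left and replication genes right, ordered by the iFGFR1 mean. Columns are arrays by group and replicate, red is above and blue below the Wnt1 mean, and the colour is limited at 1.5 either way. The upper rows are red on most iFGFR1 arrays, Kif11 is red on all 12 receptor-labelled arrays, and the dark blue cell of Kif23 on iFGFR1 replicate 1 comes from 1 of its 2 features.

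Replication starts with cyclin E, and its genes Ccne1 and Ccne2 differed from each other across the groups. Ccne1 stood at 0.092, -0.30, -0.041 and -0.60 in iFGFR1 and at -1.11, -0.94 and -0.37 in Wnt1 (lowest, median and highest). In iFGFR2 it stood at -1.49, -0.66, -1.20 and -0.94 and in iR2 at -1.20, -1.21, -1.25 and -0.91. All iFGFR1 arrays lay above every iFGFR2 and iR2 array, and 3 of 4 above every Wnt1 array. Ccne1 rose by 0.62 over Wnt1 in iFGFR1 (SE 0.20, 1.53-fold, adjusted p = 0.0455). That call sat at the threshold: it held without Wnt1 replicate 3 or 5, iFGFR1 replicate 4 or iFGFR2 replicate 1 or 2, and was lost without any 1 of the other 13 arrays (highest adjusted p = 0.141). Ccne2 was instead highest in iR2, at 0.074, -0.29, 0.29 and -0.35. Its Wnt1 arrays stood at -1.10, -0.78 and -0.49 (lowest, median and highest), its iFGFR1 arrays at -0.35, -0.92, -0.26 and -0.14, and its iFGFR2 arrays at -1.11, -0.89, -1.17 and -1.06. The iR2 arrays lay above every Wnt1 and every iFGFR2 array. Ccne2 rose by 0.72 over Wnt1 in iR2 (SE 0.19, 1.64-fold, adjusted p = 0.0253), and the call was lost without Wnt1 replicate 2, 5 or 6 or iR2 replicate 1, 2 or 3 (highest adjusted p = 0.123). Fitting the title number (0.277) or filtering on variance (0.056) also ended it. So did the term that joins Wnt1 replicate 3 to the iR2 arrays, where the difference was 0.63.

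None of the licensing members passed the test against Wnt1. The 6 MCM genes encode the ring helicase that is loaded at origins, and their differences in iFGFR1 ran from -0.42 for Mcm4 to 0.56 for Mcm5. Mcm2 stood at 1.40, 0.70, 1.35 and 0.60 in iFGFR1, 0.49, 0.84, 0.66 and 0.80 in iFGFR2, and 0.19, 0.25, 0.39 and 0.24 in iR2, with 0.29, 0.60 and 0.86 in Wnt1 (lowest, median and highest). Its iR2 arrays lay below every iFGFR1 and iFGFR2 array. Mcm4 and Mcm7 had a mean below that of Wnt1 in all 3 receptor-labelled groups, by 0.42, 0.61 and 0.30 and by 0.08, 0.37 and 0.15, with no call. The loading factors Cdc6 and Cdt1 differed by 0.14 and 0.23 in iFGFR1, by -0.25 and 0.05 in iFGFR2 and by -0.39 and -0.09 in iR2. Gmnn, the inhibitor of Cdt1, stood at 1.11, 0.90, 0.82 and 0.31 in iFGFR1, -0.63, 1.16, 0.43 and 0.14 in iFGFR2, -0.12, -0.044, -0.43 and 0.39 in iR2, and 0.21, 0.66 and 0.86 in Wnt1 (lowest, median and highest). Its difference of -0.65 between iR2 and Wnt1 did not pass (SE 0.26, adjusted p = 0.138).

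Of the genes of nucleotide supply, Rrm1 rose in iFGFR1. Rrm1, the large subunit of ribonucleotide reductase, stood at 1.40, 0.66, 1.21 and 1.04 in iFGFR1, against -0.38, 0.37 and 0.85 in Wnt1 (lowest, median and highest). It stood at 0.63, 1.07, 0.46 and 1.12 in iFGFR2 and at 0.32, 0.35, 0.32 and 0.45 in iR2. The rise of 0.76 in iFGFR1 (SE 0.22, 1.70-fold, adjusted p = 0.0238) was lost without Wnt1 replicate 6 or iFGFR1 replicate 1 or 3 (highest adjusted p = 0.0835). Rrm2, the small subunit, stood at 0.94, -0.29, 0.97 and 0.23 in iFGFR1, from -1.26 to 0.44 in Wnt1, from -0.47 to 0.46 in iFGFR2 and from -0.59 to -0.26 in iR2. Its difference of 0.81 in iFGFR1 did not pass (SE 0.31, adjusted p = 0.0821), with replicates 1 and 3 again the highest arrays. Tyms, thymidylate synthase, has 3 features that disagree, with differences of -0.69, 0.42 and 0.59 between iFGFR1 and Wnt1, so the averaged 0.11 has no settled direction. At the fork, Pcna, the sliding clamp, differed by 0.68 in iFGFR1 (adjusted p = 0.136), Rfc4, a subunit of the clamp loader, by 0.53 (0.102) and Prim1, the catalytic subunit of primase, by 0.29 (0.388).

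In iFGFR2 against Wnt1, 1 of 25 mitotic genes rose (Kif11) and 0 fell, where 1.97% of all genes rose and 1.46% fell. Of the 17 replication genes, 0 changed by limma, and 2 had an unadjusted p under 0.05. The mitotic genes had 18 of 25 differences above 0, 7 with an unadjusted p under 0.05, and a median of 0.223 against 0.0095 over all genes. The replication median was 0.0525, with 10 of 17 above 0. Every iFGFR2 array lay above every Wnt1 array for 2 mitotic genes, Kif11 and Cenpe, where 2.5% of all genes did so. Without Wnt1 replicate 3 the mitotic count was 4, where 8.37% of all genes were called against 3.43% with it. Without iFGFR2 replicate 2 the mitotic count was 3 and the replication count 1, where 8.7% of all genes were called. The mitotic count was 0 without Wnt1 replicate 2 or 6 or iFGFR2 replicate 1 or 4. Those fits called 1.24%, 1.6%, 0.586% and 1.42% of all genes.

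In iR2 against Wnt1, 2 of 25 mitotic genes rose (Kif11 and Cenpe) and 1 of 17 replication genes rose (Ccne2), where 3.91% of all genes rose, and 0 of the 42 fell, where 3.19% of all did. Of the mitotic differences, 18 of 25 were above 0, with a median of 0.276, and 13 of 17 replication differences were below 0, with a median of -0.150, against -0.0486 over all genes. With the title number as a covariate the medians were 0.040 and -0.023, and with a variance filter the replication median was 0.045. At an unadjusted p under 0.05 the counts were 5 and 2. Every iR2 array lay above every Wnt1 array for Cdk1, Kif11, Cenpe and Ccne2, where 6.24% of all genes did so, and below for Cdc6, where 7.35% did so. For Cdk1 the gap was small, from 0.139 in Wnt1 replicate 5 to 0.14 in iR2 replicate 3. Without Wnt1 replicate 3, 4 mitotic genes and 1 replication gene were called, where 11.2% of all genes were called against 7.1% with it. Without iR2 replicate 1 or 2 the mitotic count was 1, where 1.98% and 2.3% of all genes were called. Ccne2 lost its call, leaving 0 replication genes, without Wnt1 replicate 2, 5 or 6 or iR2 replicate 1, 2 or 3. Those fits called 1.79% to 4.62% of all genes. With a term that joins Wnt1 replicate 3 to the 4 iR2 arrays, added after the data were seen, iR2 is in effect set against Wnt1 replicate 3 alone. The medians were then -0.031 for mitotic and -0.48 for replication genes. With the title number as a covariate both counts were 0, where only 0.308% of all genes were called. With array weights the counts were 9 and 6, where 30.8% of all genes were called. The title number is higher on the 4 iR2 arrays than on any other array.

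**Figure D4:**
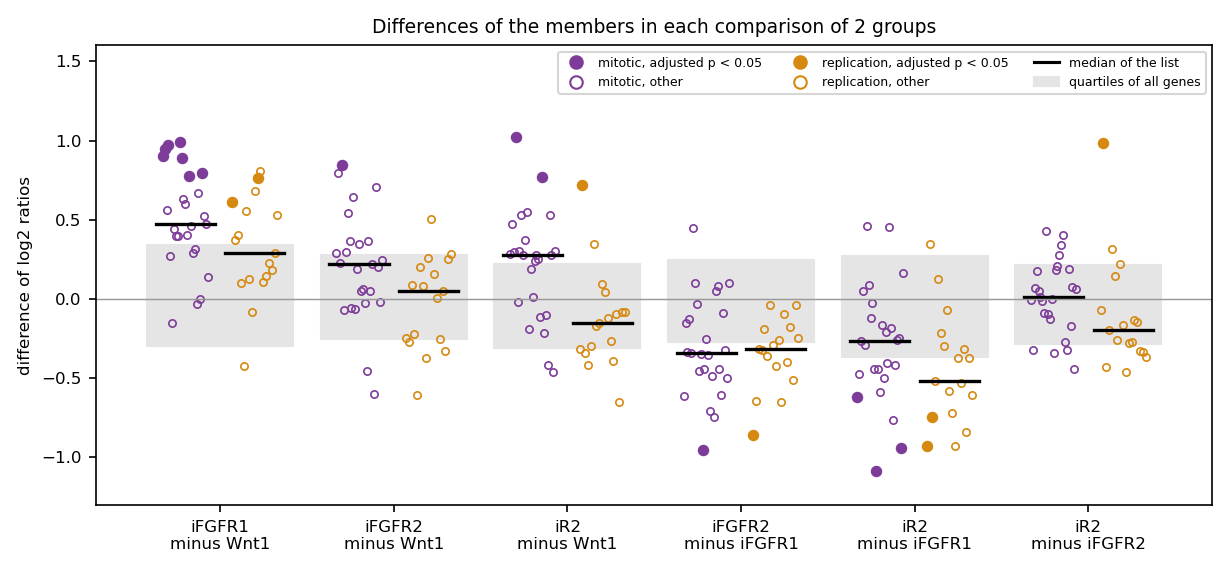
Difference of mean log2 ratios for each of the 25 mitotic (purple) and 17 replication genes (orange) in the 6 comparisons of 2 groups. Filled points have a limma adjusted p under 0.05, black lines are list medians and grey boxes span the quartiles of all 16887 genes. The mitotic median lies above the grey box for iFGFR1 (0.474) and iR2 (0.276) against Wnt1. Both medians lie below it for iFGFR2 against iFGFR1 (-0.338 and -0.315), and the replication median for iR2 against iFGFR1 (-0.519).

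Between receptor groups, most members did not pass the test. In iFGFR2 against iFGFR1, 1 of 25 mitotic genes (Ube2c) and 1 of 17 replication genes (Ccne1) fell and 0 rose, where 0.924% of all genes fell and 1.21% rose, 2.13% in all. All 17 replication differences were below 0, with a median of -0.315, as were 20 of 25 mitotic differences, with a median of -0.338, against -0.008 over all genes. At an unadjusted p under 0.05 there were 6 mitotic and 2 replication genes. Ube2c fell by 0.96 (SE 0.23, adjusted p = 0.0347) and Ccne1 fell by 0.86 (SE 0.22, adjusted p = 0.0468), and every iFGFR2 array lay below every iFGFR1 array for both, where 2.81% of all genes did so. No member had every iFGFR2 array above every iFGFR1 array, where 3.36% of all genes did. The Ube2c call was lost without iFGFR1 replicate 3 or 4 or iFGFR2 replicate 1, 3 or 4 (highest adjusted p = 0.104). The mitotic count without each array ranged from 0 to 2, with 2 without iFGFR2 replicate 2. The Ccne1 call was lost without any 1 of 14 of the 18 arrays (highest adjusted p = 0.122). Both calls were also lost with array weights, with scaling, with only the arrays compared and with a variance filter (0.0569 to 0.265).

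In iR2 against iFGFR1, 3 of 25 mitotic genes (Cdk1, Ube2c and Birc5) and 2 of 17 replication genes (Ccne1 and Mcm2) fell, where 6.84% of all genes fell, and 0 of the 42 rose, where 4.81% of all did (11.7% changed in all). The replication median was -0.519 and the mitotic median -0.262, against -0.0513 over all genes, and 15 of 17 and 20 of 25 differences were below 0. Every iR2 array lay below every iFGFR1 array for 8 mitotic and 4 replication genes, where 13% of all genes did so, and above for 0 members, where 9.21% did so. In this comparison 6 mitotic and 8 replication genes had an unadjusted p under 0.05. Ube2c fell by 1.08 (SE 0.23, adjusted p = 0.00484), Ccne1 by 0.93 (SE 0.22, adjusted p = 0.00997), and both calls held with any 1 array left out. Birc5 fell by 0.94 (SE 0.25, adjusted p = 0.017), a call lost without iFGFR1 replicate 3 or iR2 replicate 3 (highest adjusted p = 0.0661). Mcm2 fell by 0.74 (SE 0.20, adjusted p = 0.0182), a call lost without iFGFR1 replicate 1 or 3 or iR2 replicate 1 (highest adjusted p = 0.0637). Cdk1 fell by 0.62 (SE 0.18, adjusted p = 0.0267), a call lost without iFGFR1 replicate 1, 2 or 3 or iR2 replicate 2, 3 or 4 (highest adjusted p = 0.077), under quantile normalization (0.0733) and after scaling (0.0547). The mitotic count was 1 without iFGFR1 replicate 3 or iR2 replicate 3. The replication count was 1 without iFGFR1 replicate 1 or 3 or iR2 replicate 1, and 5 without iFGFR1 replicate 2, and its median was -0.32 without iFGFR1 replicate 1. With the title number as a covariate 4 of these calls were lost, Ube2c excepted (adjusted p = 0.271 to 0.436), and with the term joining Wnt1 replicate 3 to iR2 all 5 were lost (0.0767 to 0.512).

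In iR2 against iFGFR2, 0 of 25 mitotic genes changed by limma and 1 had an unadjusted p under 0.05, with a median of 0.0114 against -0.0319 over all genes. Ccne2 alone of the 17 replication genes rose, by 0.99 (SE 0.21, 1.98-fold, adjusted p = 0.0206), where 0.272% of all genes rose and 1.07% fell. The call was lost without iFGFR2 replicate 3 or iR2 replicate 1, 2 or 3 (highest adjusted p = 0.0745), under quantile normalization (0.0764), with the title number as a covariate (0.228) and with the joining term (0.322). The replication median was -0.197. The iR2 arrays lay above every iFGFR2 array for Bub1, Cenpe and Ccne2, where 4.35% of all genes did so, and below for Mcm2, Rrm1 and Prim1, where 8.68% did so.

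Further genes of the same processes were read from 3 other lists. Of 78 other mitotic genes measured, 25 rose in iFGFR1 against Wnt1 and 1 fell, or 32.1% risen against 28% of the mitotic members and 8.38% of all genes. Of 66 other replication genes, 15 rose and 2 fell, or 22.7% risen against 11.8% of the replication members. The medians were 0.429 and 0.342. The 4 mitotic genes with the smallest p were Pbk, a mitotic kinase (1.50, SE 0.25, adjusted p = 0.000549), Troap, a spindle-associated protein (1.16, SE 0.21, 0.00131), Ndc80, the kinetochore's microtubule coupler (1.34, SE 0.25, 0.00148), and Knstrn, the kinetochore protein kinastrin (0.83, SE 0.18, 0.00481). Knstrn, like Kif11, also rose in iFGFR2 (0.81, adjusted p = 0.0226) and iR2 (0.90, adjusted p = 0.00799). The 4 replication genes were Mcmbp, an MCM-binding protein (0.84, SE 0.18, adjusted p = 0.00354), Atad2, a chromatin ATPase (1.17, SE 0.26, 0.00453), Orc5, a subunit of the origin recognition complex (1.21, SE 0.27, 0.00467), and Dbf4, the activator of the kinase Cdc7 (1.12, SE 0.25, 0.00585). Orc5 rose in iFGFR2 (0.97, adjusted p = 0.0469) and iR2 (1.21, adjusted p = 0.0121) as well. In iFGFR2, 7 of the 78 (8.97%) and 3 of the 66 (4.55%) rose, against 1.97% of all genes, and 0 fell, against 1.46%. In iR2, 7 (8.97%) and 2 (3.03%) rose, against 3.91% of all genes. There 3 (3.85%) and 2 (3.03%) fell, against 3.19% of all, so the shares of replication genes were near that of all genes.

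Among cell cycle regulators in iFGFR1, 3 of 39 (7.69%) rose and 4 (10.3%) fell, with a median of 0.0904. These shares were near those of all genes, 8.38% risen and 7.06% fallen. Cdkn2a, the gene of the inhibitors p16 and Arf, fell by 1.25 (SE 0.29, adjusted p = 0.00674), from 1.71 ± 0.57 in Wnt1 to 0.47 ± 0.53. Ccnd2, a D cyclin, fell by 1.32 (SE 0.31, adjusted p = 0.00683) and Cdk6, a kinase partner of D cyclins, fell by 1.16 (SE 0.27, adjusted p = 0.00683). Wee1, the kinase that restrains Cdk1, rose by 0.94 in iFGFR1 (SE 0.23, adjusted p = 0.00911) and by 0.98 in iR2 (adjusted p = 0.0157). The other D cyclins did not pass in any group: Ccnd1 differed by -0.71 (iFGFR1), -0.57 (iFGFR2) and -0.60 (iR2; adjusted p = 0.0589, 0.187 and 0.145), and Ccnd3 by 0.10, -0.09 and -0.06. Of the inhibitors Cdkn1a, Cdkn1b, Cdkn1c, Cdkn2b and Cdkn2c, none passed in limma against Wnt1, and their adjusted p-values ran from 0.124 to 0.962. Cdkn1a, which encodes p21, differed by -1.18, -1.35 and -0.65 (SE 0.51), with an SD of 1.13 within Wnt1. Cdkn2d, which encodes p19, fell by 0.75 in iR2 (SE 0.20, adjusted p = 0.025). Of the 39 regulators 0 changed in iFGFR2 by limma, with 7 at an unadjusted p under 0.05.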

How the data were processed

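The deposited table held 1 log ratio per feature and array, for 22575 features and 18 arrays. The authors deposited these values as log ratios, read here as log2 because the base is not stated, with the direction taken from the dyes per the labels (tumour Cy5 over reference Cy3). Per the labels' protocols, tumour RNA came from a Qiagen column kit and reference RNA from TRIZOL. No source used here gives the scanner, background correction or normalization. No cell was empty, and no value was changed.

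Features were named by the platform annotation: 18658 had 1 symbol, 30 several and 3887 none. Features of 1 symbol were averaged, giving 16887 genes. All 18 arrays entered 1 fit in limma 3.58.1 (R 4.3.3, lmFit and eBayes, 1 mean per group, no covariate), with 2-sided p-values and Benjamini-Hochberg adjustment over all genes within each comparison and a threshold of 0.05. Called, rose and fell mean past that threshold, and a gene that missed it is not shown to be alike between groups. A fold assumes base 2. The fit was tested on simulated data with known changes. The number of arrays limits the precision.

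The members and lists were chosen with earlier results of these data known. Values by array are given for the 10 mitotic and 6 replication members with the smallest F test p and for other called members. Of each further cell cycle list, the 4 genes with the smallest p in iFGFR1 against Wnt1 are named, with the D cyclins and Cdkn genes. Alternatives covered scaling, weights, prior, features, filter, threshold, arrays in the fit, the title number and each array left out. Array replicate numbers are in accession order. Promoter windows, 1 per symbol, are from RefSeq (GRCm38.p6).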

Additional observations from a re-analysis of the deposited data

Results flagged for a closer look

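Within a group of 4 or 6 arrays, a value was marked when its gap to the nearest other array, divided by the range of the group, passed Dixon's 95% limit. Of 176 such tests on the 42 members and their list means, 12 were marked, and chance marks about 1 in 20.

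The mean of the mitotic genes on iFGFR1 replicate 3 was 0.897, above the other iFGFR1 arrays at 0.523 to 0.554. The mean on iFGFR1 replicate 1 includes Kif23 at -2.35, an average of features that read -5.5 and 0.797. Whether replicate 3 is still marked without Kif23 was not tested. The mean of the replication genes on iFGFR2 replicate 1 was -0.013, below the others at 0.277 to 0.308.

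Of single genes, 6 marks fell in iFGFR2. On replicate 2, Cdk1 was high at 0.573 (others 0.114 to 0.187), while Kif2c was low at 0.297 (0.716 to 0.756), Kif4 at -0.654 (0.268 to 0.394) and Cdc6 at -0.71 (-0.111 to -0.022). On replicate 1, Kif20a was low at -0.591 (0.403 to 0.59) and Prim1 high at 0.817 (0.278 to 0.362). In Wnt1, Kif23 stood at -0.803 on replicate 2 (others -0.161 to -0.006) and Ube2c at -0.701 on replicate 1 (0.066 to 0.277). In iR2, Kif4 stood at -0.05 on replicate 2 (0.021 to 0.027), and Ccne1 at -0.907 on replicate 4 (-1.251 to -1.197).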

How the results depend on the processing

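No result turned its direction while called. Subtracting array medians lost none of the 21 calls of single members and raised 4 counts by 1 each. Counts below are genes called, mitotic then replication. A percentage in brackets is the share of all genes called in that fit. For comparisons between receptor groups that share is not set beside the counts. A moved count there cannot be told from a change over all genes. In the unchanged fit, 2.13% of all genes were called in iFGFR2 against iFGFR1, 11.7% in iR2 against iFGFR1 and 1.34% in iR2 against iFGFR2.

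For iFGFR1 against Wnt1 (7 and 2, 15.4%), counts were 4 and 1 after scaling to 1 median absolute deviation (13.9%). They were 4 and 0 at a threshold of 0.01 (6.06%), and 4 and 1 with the title number as a covariate (13.3%). The replication count was 0 with only the arrays compared (11%) and 1 with a variance filter (24.5%). It was 4 with the term joining Wnt1 replicate 3 to iR2 (18.3%). With the filter, which leaves fewer members, the medians were 0.78 and 0.62. For iFGFR2 against Wnt1 (1 and 0, 3.43%), the mitotic count was 0 with only the arrays compared (0.847%) and at 0.01 (0.486%). It was 4 with the joining term (8.37%).

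For iR2 against Wnt1 (2 and 1, 7.1%), counts were 4 and 2 after scaling (20.1%) and 9 and 6 with array weights (30.8%). They were 1 and 0 with the variance filter (9.79%) and at 0.01 (1.39%), and 0 and 0 with the title number (0.308%). The mitotic count was 1 without genes of several features (6.94%), and the replication count 2 with only the arrays compared (13.7%). The mitotic median was 0.040 with the title number and -0.031 with the joining term, and the replication median 0.045 with the filter and -0.48 with the joining term.

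For iFGFR2 against iFGFR1 (1 and 1), both counts were 0 after scaling, with array weights, with only the arrays compared, with the filter and at 0.01. The replication count was also 0 with a trended and robust prior and with the feature of largest variance, and its median was -0.51 with the filter. For iR2 against iFGFR1 (3 and 2), counts were 1 and 1 at 0.01, 1 and 0 with the title number, and 0 and 0 with the joining term. The replication count was 7 with array weights, 5 with only the arrays compared and 1 with the filter. The medians were -0.46 and -0.72 with the filter and -0.60 and -0.73 with the joining term. For iR2 against iFGFR2 (0 and 1), the replication count was 0 under quantile normalization, at 0.01, with the title number and with the joining term, and the medians were -0.32 and -0.42 with the joining term. Among the 4 groups (5 and 3), counts were 13 and 10 with array weights (37.4% of all genes) and 3 and 1 at 0.01, and 3 mitotic genes were called with the filter. The cause of these changes was not tested, apart from the stricter threshold and the smaller sets of arrays or genes.

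With each array left out, the ranges were 4 to 9 and 0 to 4 for iFGFR1 against Wnt1, 0 to 4 and 0 to 1 for iFGFR2 against Wnt1, 1 to 4 and 0 to 1 for iR2 against Wnt1, 0 to 2 and 0 to 1 for iFGFR2 against iFGFR1, 1 to 4 and 1 to 5 for iR2 against iFGFR1, 0 to 0 and 0 to 1 for iR2 against iFGFR2, and 4 to 10 and 1 to 5 among the 4 groups. The share of all genes called moved as well. Against Wnt1 it ranged from 10.4% to 18.3% for iFGFR1, 0.586% to 8.7% for iFGFR2 and 1.79% to 11.2% for iR2. The replication median of iR2 against iFGFR1 ranged from -0.56 to -0.32. Of the 21 calls of single members, 7 held with any 1 array left out: Cdk1, Kif11, Bub1b and Ube2c in iFGFR1 and Kif11 in iR2, each against Wnt1, and Ube2c and Ccne1 in iR2 against iFGFR1.

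No paired analysis was possible because the replicate numbers are in accession order and the labels pair no arrays. Signal over background is not known from log ratios alone, so dim features could not be told from bright ones.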

Other observations

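The split among iFGFR1 arrays in the replication genes was also present in the further gene lists. The mean of the 66 other replication genes was 0.965 and 0.802 on iFGFR1 replicates 1 and 3, and 0.380 and 0.504 on replicates 2 and 4, where the highest of the other 14 arrays stood at 0.550. The mean of the 78 other mitotic genes was 0.655 and 0.619 on replicates 1 and 3 against 0.268 and 0.318 on replicates 2 and 4, with the highest of the other 14 arrays at 0.302. Replicates 1 and 3 were therefore the highest of the 18 arrays in both further lists, while replicate 2 lay within the range of the other groups in both. The labels give nothing that separates these pairs of arrays.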
